A study of Homo sapiens with 5 samples.

Results

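MYC and Mediator peaks were followed at 60 ribosome biogenesis and nucleolar genes, named for their roles in making ribosomes, out of 20037 protein-coding genes in the RefSeq table for GRCh38.p14. A gene counted as bound in a peak list when a deposited peak lay within 1 kb of either end of the gene. The peaks come from ChIP-seq, in which DNA bound by a protein is pulled down with an antibody and sequenced, in MIA PaCa-2 cells, a long-established human line from a pancreatic tumour. The groups were MYC in a MIA PaCa-2 line with a teton (doxycycline-inducible) shMED30 construct after 3 days of doxycycline, labelled 0.5 mg/ml; MYC in the same shMED30 line without doxycycline; and MYC, MED30 and MED17 in parental cells. Each group held 1 library, so no difference below has a replicate check, no test across libraries was possible, and intervals cover counting error only. The doxycycline arm was made to ask what loss of MED30 does to MYC binding; MED30 itself was not measured in the shMED30 line, so the depletion was not checked here. Whether that line is a clone or a pool is not given in the sources used here. Cells for the Mediator subunits were cross-linked first with disuccinimidyl glutarate (2 mM, 20 min) and then with formaldehyde (1%, 10 min), and cells for MYC with formaldehyde alone.

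Ribosome biogenesis starts in the nucleolus, where RNA polymerase I transcribes the ribosomal RNA precursor. Small nucleolar ribonucleoproteins (snoRNPs) modify that precursor, the small subunit processome folds and cuts the 40S part, and a further set of factors builds the 60S part. MYC, a transcription factor that recognises the E-box CACGTG as a dimer with MAX, is known for driving these genes in growing and cancer cells. Mediator is the complex that connects transcription factors with RNA polymerase II, and MED17 and MED30 belong to its head module.

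The libraries differed in depth. The lists held 4621 peaks for MYC with doxycycline, 7158 for MYC without it, 14331 for parental MYC, 12040 for MED30 and 13172 for MED17. Pileup is the number of overlapping fragments at a position. Background pileup, taken as the lowest local background recovered among the called peaks of each list, was 0.186, 0.310, 2.56, 1.65 and 1.60 fragments in the same order. By this measure the doxycycline library was 0.599 times as deep as the library without doxycycline, and the parental MYC library 8.27 times as deep. Called peaks in the shMED30 lists rested on few fragments (as few as 3 with doxycycline and 4 without it, against 10 for parental MYC). As a coarse check of the cell label, VIM, KRT8 and KRT18 carried peaks of all 3 proteins in parental cells and KRT19 of the Mediator subunits alone. No other cell line was compared, so these peaks do not single out MIA PaCa-2. Neither shMED30 list had a MYC peak at any of these 4 genes, so they check nothing there. None of 4 acinar and 3 immune genes had a peak in any list; of 3 fibroblast genes, COL1A2 had peaks of both Mediator subunits.

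Nearly every member was bound by MYC in parental cells, and most were bound by both Mediator subunits too. A parental MYC peak lay at 57 of 60 members (95%, exact 95% interval 86.1 to 99.0%), beside 39.0% of all protein-coding genes. MED30 peaks lay at 47 members (78.3%, interval 65.8 to 87.9%) beside 41.7% of all genes, and MED17 peaks at 54 (90%, interval 79.5 to 96.2%) beside 47.9%. In the shMED30 line MYC peaks lay at 18 members with doxycycline (30.0%, interval 18.8 to 43.2%) and at 31 without it (51.7%, interval 38.4 to 64.8%), beside 4.71% and 8.55% of all genes. Members were thus called more often than genes in general in all 5 lists, and by the most percentage points for parental MYC.

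**Figure D1:**
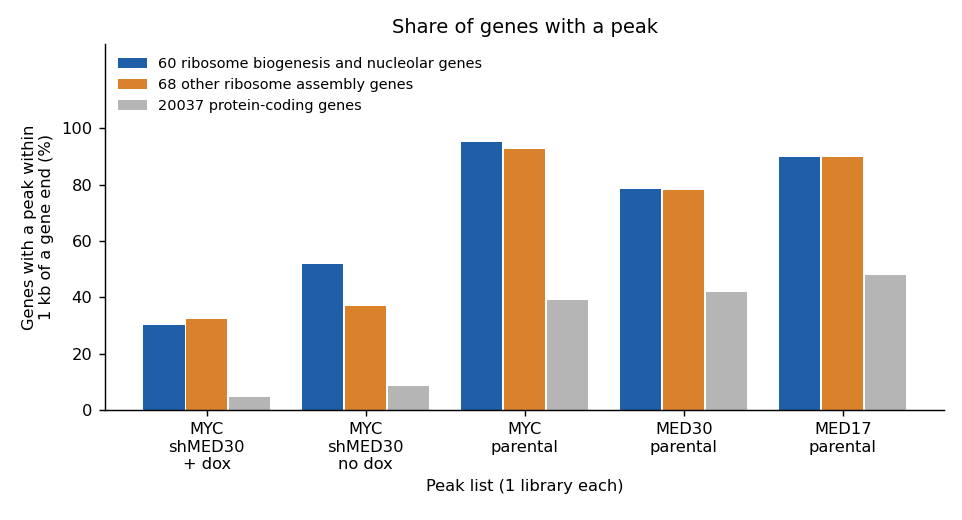
Share of genes with a peak within 1 kb of a gene end (y axis, percent) in each of the 5 lists (x axis, 1 library each), for the 60 members, 68 other ribosome assembly genes and 20037 protein-coding genes. The members' bars stand above those of all genes in every list, at 30.0% and 51.7% in the shMED30 line with and without doxycycline and 95% for parental MYC.

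The 68 other ribosome assembly genes, a list of further processome, 40S and 60S factors that are not members, had similar shares in parental cells: MYC at 63 (92.6%), MED30 at 53 (77.9%) and MED17 at 61 (89.7%). In the shMED30 line they had MYC peaks at 22 genes with doxycycline (32.4%) and at 25 without it (36.8%). The intervals of the members and of these genes overlap in every list.

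All 3 proteins were present at 46 of 60 members in parental cells (76.7%, interval 64.0 to 86.6%), beside 31.2% of all genes. Another 8 members (13.3%, interval 5.94 to 24.6%) had MYC and MED17 without MED30, beside 4.83% of all genes: NPM3, UBTF, GAR1, NHP2, NOC4L, UTP20, NOC2L and DDX18. UBTF did have a MED30 peak near a RefSeq start. Both states need a parental MYC peak, which members had more often than genes in general. Of genes with such a peak, 8 of 57 members and 967 of 7813 genes had MYC and MED17 without MED30. All 3 proteins were at 46 of those 57 members and 6242 of those 7813 genes. Neither share thus sets members apart from other MYC-bound genes. NOC3L had MYC and MED30 without MED17 (1.32% of all genes), and GNL3L and DDX10 had MYC alone (1.70% of all genes). No member had both Mediator subunits without MYC, beside 7.80% of all genes. Only the 3 members without a parental MYC peak could have shown this state, so no depletion can be read from that count. The strongest parental MYC peak overlapped a peak of each subunit by at least 1 bp at 45 of 57 members (78.9%), against 73.9% of all genes with a parental MYC peak, so physical overlap was about as common at members as at other MYC-bound genes.

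Parental MYC peaks at members had higher folds than those of most bound genes, while the Mediator folds were close to those of all bound genes. Fold enrichment, the authors' deposited ratio of summit pileup to local background for each peak, had a median of 7.25 over the strongest parental MYC peaks of the 57 members, beside 4.68 over all 7813 genes with such a peak. The median member ranked at the 89.1st percentile of those genes, and 25 of 57 members (43.9%) were in the top 10%. The other ribosome assembly genes were close to the members, with a median of 6.59 at the 83.9th percentile. In the shMED30 line the members' medians were 6.66 with doxycycline (5.50 over all bound genes, 5.86 over the other assembly genes) and 6.29 without it (5.91 and 6.61). Without doxycycline the median member ranked only at the 58.4th percentile. Folds here and below rank peaks within a list, and their sizes do not compare between lists, because background differs between libraries. For MED30 the medians were 5.28 at members and 5.05 at all bound genes, with 6 of 47 members in the top 10%. For MED17 they were 5.19 at both, with 7 of 54 in the top 10%. Across members, the fold of parental MYC and that of each subunit were weakly related as ranks (Spearman's rho 0.26 with MED30 over 47 genes, 0.33 with MED17 over 54), a description over genes that share libraries and local chromatin.

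The promoters below belong to the 6 members with the highest parental MYC fold among those bound by MYC in all 3 MYC lists that have a RefSeq promoter window. They are shown because their MYC summits can be set against the sequence. Each runs from 90 bases before the RefSeq gene start to 30 bases from it on, 5′ to 3′ along the gene, and capitals mark CACGTG. The windows, in RefSeq on GRCh38.p14, are chr19:10106272-10106391 (+ strand), chr2:28894577-28894696 (+ strand), chr21:43789487-43789606 (+ strand), chr16:69132559-69132678 (+ strand), chr2:231464455-231464574 (- strand) and chr3:52685942-52686061 (+ strand).
PPAN: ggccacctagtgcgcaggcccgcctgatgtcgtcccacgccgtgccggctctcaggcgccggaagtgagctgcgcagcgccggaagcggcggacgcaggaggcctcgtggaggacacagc
WDR43: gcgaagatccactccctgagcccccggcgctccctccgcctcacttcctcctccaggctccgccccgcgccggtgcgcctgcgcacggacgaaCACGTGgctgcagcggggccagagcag
RRP1: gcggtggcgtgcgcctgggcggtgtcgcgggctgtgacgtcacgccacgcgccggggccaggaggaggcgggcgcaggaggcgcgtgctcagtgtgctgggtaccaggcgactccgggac
UTP4: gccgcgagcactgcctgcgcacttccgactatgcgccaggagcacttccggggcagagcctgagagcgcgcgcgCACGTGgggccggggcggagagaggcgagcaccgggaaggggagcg
NCL: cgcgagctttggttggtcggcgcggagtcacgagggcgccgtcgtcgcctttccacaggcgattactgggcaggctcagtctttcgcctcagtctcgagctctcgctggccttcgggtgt
GNL3: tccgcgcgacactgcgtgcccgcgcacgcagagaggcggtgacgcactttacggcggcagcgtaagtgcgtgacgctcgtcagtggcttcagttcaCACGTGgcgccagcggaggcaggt

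WDR43 and GNL3 hold CACGTG just past the gene start, with its first base at +4 and +7 counted from +1 at the start. The parental MYC summit was 9.5 bp from the middle of the site at WDR43 and 1.5 bp from it at GNL3. UTP4 has the site at -16, and its parental MYC summit was 7.5 bp away. PPAN, RRP1 and NCL have no CACGTG in this window; their parental MYC summits lay 12 bp past, 10 bp before and 658 bp past the start, which counts as 0 for summit distances.

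Further promoters are shown for 3 members chosen after their values were seen. PES1 is missed by the gene-end rule, FBL is bound in parental cells only, and URB1 is the strongest peak called without doxycycline and not with it. Their windows are chr22:30591881-30592000 (- strand), chr19:39846350-39846469 (- strand) and chr21:32392983-32393102 (- strand), and capitals again mark CACGTG.
PES1: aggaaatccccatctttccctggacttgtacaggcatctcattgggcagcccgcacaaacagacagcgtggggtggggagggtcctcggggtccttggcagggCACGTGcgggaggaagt
FBL: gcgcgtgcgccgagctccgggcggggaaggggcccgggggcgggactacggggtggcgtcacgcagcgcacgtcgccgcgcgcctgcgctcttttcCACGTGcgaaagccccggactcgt
URB1: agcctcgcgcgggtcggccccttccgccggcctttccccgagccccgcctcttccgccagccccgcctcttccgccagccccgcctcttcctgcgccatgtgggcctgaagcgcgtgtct

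PES1 and FBL carry CACGTG at +14 and +7, and the parental MYC summits lay 26.5 and 8.5 bp from the middle of the site. URB1 has none in the window, although its parental MYC summit was only 32 bp past the start.

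Over the whole RefSeq window of 250 bases before to 50 bases after the start, CACGTG (a palindrome, so read once for both strands) was present in 21 of 51 members with a window (41.2%) and in 22 of 58 other ribosome assembly genes (37.9%). It was present in 10.9% of 15842 protein-coding genes and in 15.5% of the 6680 genes with a parental MYC peak within 1 kb of a start. The site lay close after the start: its first base fell between +1 and +45 in 14 members (27.5%) and in 11 of the 58 other assembly genes (19%), but in 2.02% of MYC-bound genes and 1.28% of all genes. These position bins were set after the values were seen. The related sequence CACGCG, searched on both strands and unable to overlap CACGTG, began there in 4 members (7.84%), 9 of the 58 other assembly genes (15.5%), 5.06% of MYC-bound genes and 3.23% of all genes. A match is a stretch of letters and not a measured binding site.

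**Figure D2:**
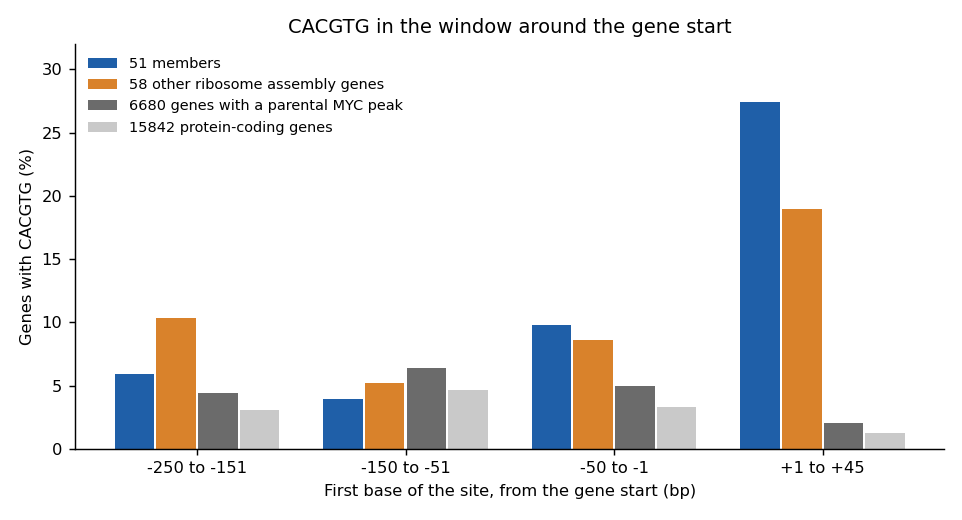
Share of genes with CACGTG (y axis, percent) by the position of its first base from the RefSeq gene start (x axis, bins of 100, 100, 50 and 45 bases), for 51 members, 58 other ribosome assembly genes, 6680 genes with a parental MYC peak and 15842 protein-coding genes. In the bin after the start, members reach 27.5% and all genes 1.28%.

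MYC summits sat close to these letters. At the 20 members with both a parental MYC peak and the site, the summit was a median of 23.5 bp from the nearest site and within 50 bp at 15 (75%). The same distance had a median of 88.5 bp over all 1035 such genes, of which 38.9% were within 50 bp. Members and all genes differ in site position and in MYC fold, and the comparison was matched for neither. In the shMED30 line the site was within 50 bp of the summit at 7 of 8 members with doxycycline and at 9 of 12 without it, against 48.6% and 51.7% of all such genes. Mediator summits were farther away, with medians of 172.5 bp for MED30 (16 members) and 242.5 bp for MED17 (19 members). Over all such genes these medians were 184.5 and 360.5 bp, so the distance from MED17 summit to site was also shorter at members. From the start, however, MED17 summits lay at similar medians, +190 bp at members and +176 bp over all genes. The site lay just after the start more often in members, and the part of site position in this distance was not tested.

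Measured from the RefSeq start, the MYC summits of members were tightly placed. The median parental MYC summit was 40 bp past the start and 34 of 49 members (69.4%) had it within 100 bp, whereas all 6680 bound genes had a median of -7 bp and 34.6% within 100 bp. With doxycycline the members' median was 71 bp past the start (16 members) and without it 42 bp past (27 members). MED30 summits had a median of -30 bp at members, near the -25 bp of all genes. MED17 summits had a median of +190 bp, near the +176 bp of all genes, and only 3 of 47 members had one within 100 bp. By these medians, MED30 summits lay about at the start, MYC summits just past it and MED17 summits farther into the gene. Not every member followed this order. The MYC summit lay before the MED30 summit at 11 of 38 members, beside 43.8% of all such genes. It lay before the MED17 summit at 29 of 46 members, beside 62.4% of all such genes. Where both were present, the MYC summit lay a median of 81 bp farther in the direction of the gene than the MED30 summit (38 members, 36 bp over all genes) and 126 bp short of the MED17 summit (46 members, 118 bp over all genes). Fixation differed between MYC and Mediator chromatin, and its part in these offsets was not tested.

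**Figure D3:**
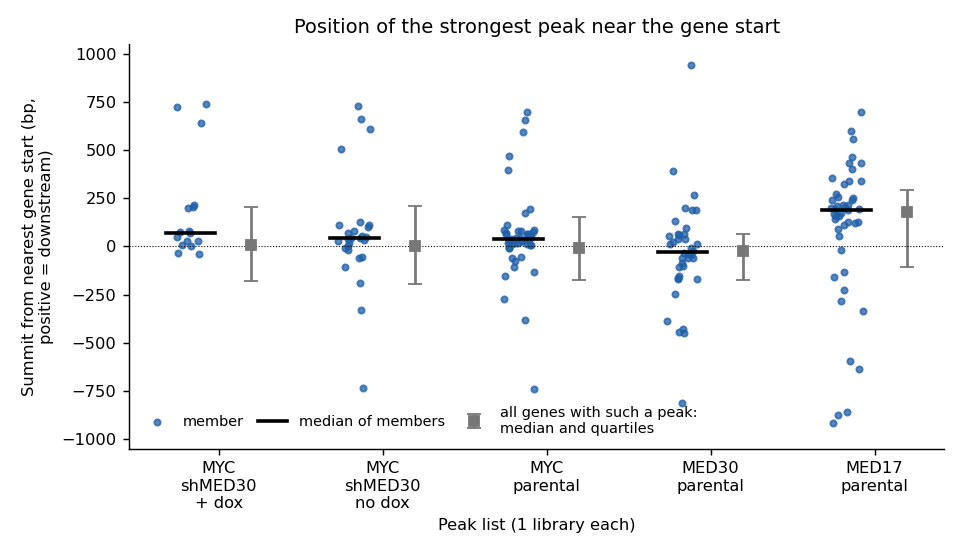
Distance of the strongest peak's summit from the nearest RefSeq gene start (y axis, bp, positive into the gene) for members (points), with their median (bar) beside the median and quartiles of all genes with such a peak (grey), in the 5 lists (x axis). Parental MYC summits of members gather at a median of 40 bp past the start, and MED17 summits at 190 bp.

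By start position, counting peaks within 1 kb of a RefSeq start gave the same picture over the 51 members with a window. MYC was present at 16 with doxycycline and 27 without it in the shMED30 line, against 5.16% and 9.40% of all 15842 genes with a window. In parental cells it was present at 49 (42.2% of all genes), MED30 at 38 (44.8%) and MED17 at 47 (51.8%).

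The nucleolar scaffold and RNA polymerase I group held 9 members, all with MYC and MED17 in parental cells and 7 with MED30. Their median parental MYC fold was 7.58. NCL encodes nucleolin, an abundant nucleolar RNA-binding protein. Its MYC folds were 10.2 with doxycycline, 12.8 without it and 10.2 in parental cells, with 9.58 for MED30 and 5.62 for MED17. MYC lay inside the gene in all 3 MYC lists, with summits 639, 611 and 658 bp past the start in the same order, whereas the MED30 summit was 12 bp and the MED17 summit 159 bp past it. NPM1 encodes nucleophosmin, a nucleolar histone chaperone. In parental cells it had a MYC fold of 11.3 on a pileup of 123 fragments, with 8.50 for MED30 and 6.29 for MED17. As at NCL, its parental MYC summit lay inside the gene, 699 bp past the nearest RefSeq start, with the MED30 summit 8 bp before that start and the MED17 summit 160 bp past it. The rule counted NPM1 as unbound in the shMED30 line, but there the nearest MYC peaks lay just outside it. They were 1321 bp from the gene end with doxycycline (fold 9.02, pileup 13) and 1157 bp without it (fold 9.48, pileup 18), within 1 kb of that RefSeq start. The other member with a peak just outside was UTP18, 1066 bp away without doxycycline (fold 5.58). Just inside was the parental MYC peak of UBTF, 840 bp from the gene end.

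At 2.57 its fold was the lowest parental MYC fold at a member's gene end. UBTF encodes the upstream binding factor of the polymerase I machinery. By the gene-end rule it had a MED17 fold of 3.57, no MED30 peak and no MYC peak in the shMED30 line. Stronger peaks lay within 1 kb of a RefSeq start of UBTF, with folds of 7.12 for parental MYC (58 fragments), 5.96 for MED30 (48 fragments) and 4.54 for MED17. NOLC1, a snoRNP chaperone, carried MYC in every MYC list, with folds of 8.80 with doxycycline, 9.46 without it and 9.47 in parental cells, and both subunits (6.98 for MED30, 8.65 for MED17). DDX21, a nucleolar RNA helicase, had no MYC peak with doxycycline, a fold of 4.76 without it and 8.76 in parental cells, with 5.28 for MED30 and 6.83 for MED17. MYBBP1A, a MYB-binding nucleolar protein, had a peak with doxycycline (4.87), none without it and 7.58 in parental cells, with 8.50 for MED30 and 4.68 for MED17. RRP8, linked to rRNA base methylation, had the weakest member peak with doxycycline, a fold of 3.34 on 3 fragments, against 5.74 without it and 6.74 in parental cells. Its Mediator folds were 3.95 for MED30 and 2.87 for MED17. NPM3, a nucleoplasmin relative, had no MYC peak with doxycycline, a fold of 5.44 without it and 4.12 in parental cells, with 3.23 for MED17. LYAR had peaks in parental cells only (7.31 for MYC, 4.54 for MED30, 3.46 for MED17).

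The box C/D snoRNP core, which guides 2′-O-methylation of ribosomal RNA, had all 3 proteins at each of its 3 members. NOP56 and NOP58 are its scaffold proteins. NOP58 had MYC folds of 6.11 with doxycycline, 7.38 without it and 8.54 in parental cells, beside 5.68 for MED30 and 6.80 for MED17. NOP56 had 6.03, 6.77 and 8.16 in the same lists, beside 9.51 for MED30 and 6.83 for MED17. At NOP56 the strongest MYC summit was 213 bp past the start with doxycycline but 737 bp before it without doxycycline and 741 bp before it in parental cells, so the strongest MYC summits of this gene mark different places. FBL, the methyltransferase fibrillarin, had no MYC peak in the shMED30 line with or without doxycycline. In parental cells it had folds of 6.92 for MYC, 3.86 for MED30 and 6.92 for MED17, and its parental MYC pileup was 41 fragments against 83 at NOP58 and 88 at NOP56.

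The box H/ACA snoRNP group, which guides pseudouridylation, held 5 members with MYC and MED17 at all 5 and MED30 at 3. GAR1, a core protein, had the highest parental MYC fold of the group (11.9). It had no MYC peak with doxycycline and a fold of 8.47 without it, 7.06 for MED17 and no MED30 peak. DKC1 encodes dyskerin, the pseudouridine synthase. Its MYC folds were 4.63 with doxycycline, 7.95 without it and 7.66 in parental cells, with 6.55 for MED30 and 4.31 for MED17. NHP2 had parental MYC (7.13) and MED17 (4.10) peaks and none in the other lists. NOP10 had no MYC peak with doxycycline, 6.21 without it and 4.42 in parental cells, with 3.78 for MED30 and 5.57 for MED17. NAF1, which assembles the particle, had peaks in parental cells only (5.06 for MYC, 4.29 for MED30, 6.50 for MED17). DKC1 was thus the only member of this group with a MYC peak in all 3 MYC lists.

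The small subunit processome and 40S group was the largest, 21 members, with MYC peaks at 2 members with doxycycline, 7 without it and 19 in parental cells. WDR43 and UTP4, proteins of the subcomplex that joins the precursor early, were those bound in all 3 MYC lists. WDR43 had MYC folds of 9.03 with doxycycline, 13.5 without it and 13.2 in parental cells, and the highest parental MYC pileup of any member (163 fragments). Its Mediator folds were 4.63 for MED30 and 8.43 for MED17. UTP4 had MYC folds of 8.25 with doxycycline, 6.29 without it and 10.3 in parental cells, with 6.83 for MED30 and 7.25 for MED17. NOP14, the third by parental MYC fold (9.87), had no peak in the shMED30 line, and 4.20 for MED30 and 4.39 for MED17.

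MYC peaks without doxycycline and not with it were found at 5 genes of this group. WDR75 had a fold of 6.41 without doxycycline and 7.25 in parental cells (7.26 for MED30, 5.81 for MED17), and HEATR1 5.48 and 7.36 (3.61 and 4.34). WDR36 had 5.11 and 7.16 (3.69 and 6.77), and UTP14A 4.14 and 5.83 (5.41 and 4.46). NOP9 had 5.18 and 6.86 (5.92 and 7.85), but these peaks lie at a boundary of the neighbouring gene RABGGTA. The RefSeq start of NOP9 is 28.6 kb inside its annotated span, and only a MED17 peak (4.89) was within 1 kb of that start. Besides NOP14, 11 members of the group had MYC in parental cells and in neither shMED30 list: NOC4L, WDR3, RRP9, UTP18, UTP20, DDX10, UTP3, UTP15, RRP12, UTP6 and RRP36. Their parental MYC folds ran from 3.93 at RRP36 to 7.75 at NOC4L.

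Of the PeBoW complex, which acts in 60S maturation, BOP1 and WDR12 were bound. BOP1 had MYC folds of 6.48 with doxycycline, 11 without it and 8.41 in parental cells, beside 4.46 for MED30 and 5.76 for MED17. WDR12 had 6.74 in parental cells and no MYC peak in the shMED30 line, beside 5.87 for MED30 and 3.81 for MED17. PES1 had no peak at either gene end. Its RefSeq start lies 15.1 kb inside the annotated gene, and there it had no MYC peak with doxycycline, a fold of 9.77 without it and 14.0 in parental cells, above every parental MYC fold at a member's gene end. At that start MED17 had 6.74 and MED30 no peak.

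The 60S assembly group held 19 members, all with parental MYC, and the most MYC peaks in the shMED30 line: 8 with doxycycline and 13 without it. PPAN, a 60S assembly factor, had the highest parental MYC fold of any member counted by the rule, 13.6, against 15.3 with doxycycline and 13.3 without it. Its Mediator folds were 5.36 for MED30 and 6.24 for MED17, where the members' medians were 5.28 and 5.19. A boundary of ANGPTL6 lies within 1 kb of the peak, and the read-through gene PPAN-P2RY11 shares the promoter. URB1 had no MYC peak with doxycycline, 13.8 without it and 12.7 in parental cells, with 6.17 for MED30 and 4.56 for MED17. RRP1B had 9.42, 9.06 and 11.3 in the MYC lists with doxycycline, without it and in parental cells, beside 6.06 for MED30 and 5.95 for MED17. Its paralogue RRP1 had 6.21, 4.96 and 10.6 in the same lists, beside 5.11 for MED30 and 5.16 for MED17.

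NOP2, an rRNA cytosine methyltransferase, had MYC folds of 8.48 with doxycycline, 9.38 without it and 7.36 in parental cells (4.41 for MED30, 5.21 for MED17). EBNA1BP2 had 7.27, 8.84 and 6.60 in the same lists (3.58 and 3.84), and NOC3L 6.84, 4.69 and 6.85 (4.07 for MED30, no MED17 peak). GNL3, the GTPase nucleostemin, had 4.04, 8.01 and 9.38 (5.66 and 4.38). These 4 genes kept a MYC peak under doxycycline, at 4 to 11 fragments. NOP53 had 4.85 with doxycycline, no peak without it and 4.22 in parental cells (6.26 for MED30, 5.87 for MED17).

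Of the other 60S genes with a peak without doxycycline and none with it, RRP15 had a fold of 5.95 without doxycycline and 8.61 in parental cells (5.23 for MED30, 5.11 for MED17). NOP16 had 5.90 and 8.21 (6.11 and 4.56), and DDX56 5.79 and 8.63 (3.48 and 7.13). URB2 had 5.14 and 8.38 (6.34 and 4.63), and DDX18 4.83 and 8.21 (no MED30 peak, 6.51 for MED17). All 5 had parental MYC folds above the members' median. RRS1, GNL2, NOC2L and GNL3L had MYC in parental cells only, with folds of 7.77, 6.59, 5.21 and 5.05. WDR74 departed from the others: its gene-end peaks lie at the RNU2-2 small nuclear RNA gene, with the highest MED30 fold (11.5, 211 fragments) and pileup of any member, 7.82 for MED17 and 3.39 for parental MYC. At its own RefSeq start, 2.15 kb inside the annotated gene, MYC had a fold of 7.20 in parental cells.

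**Figure D4:**
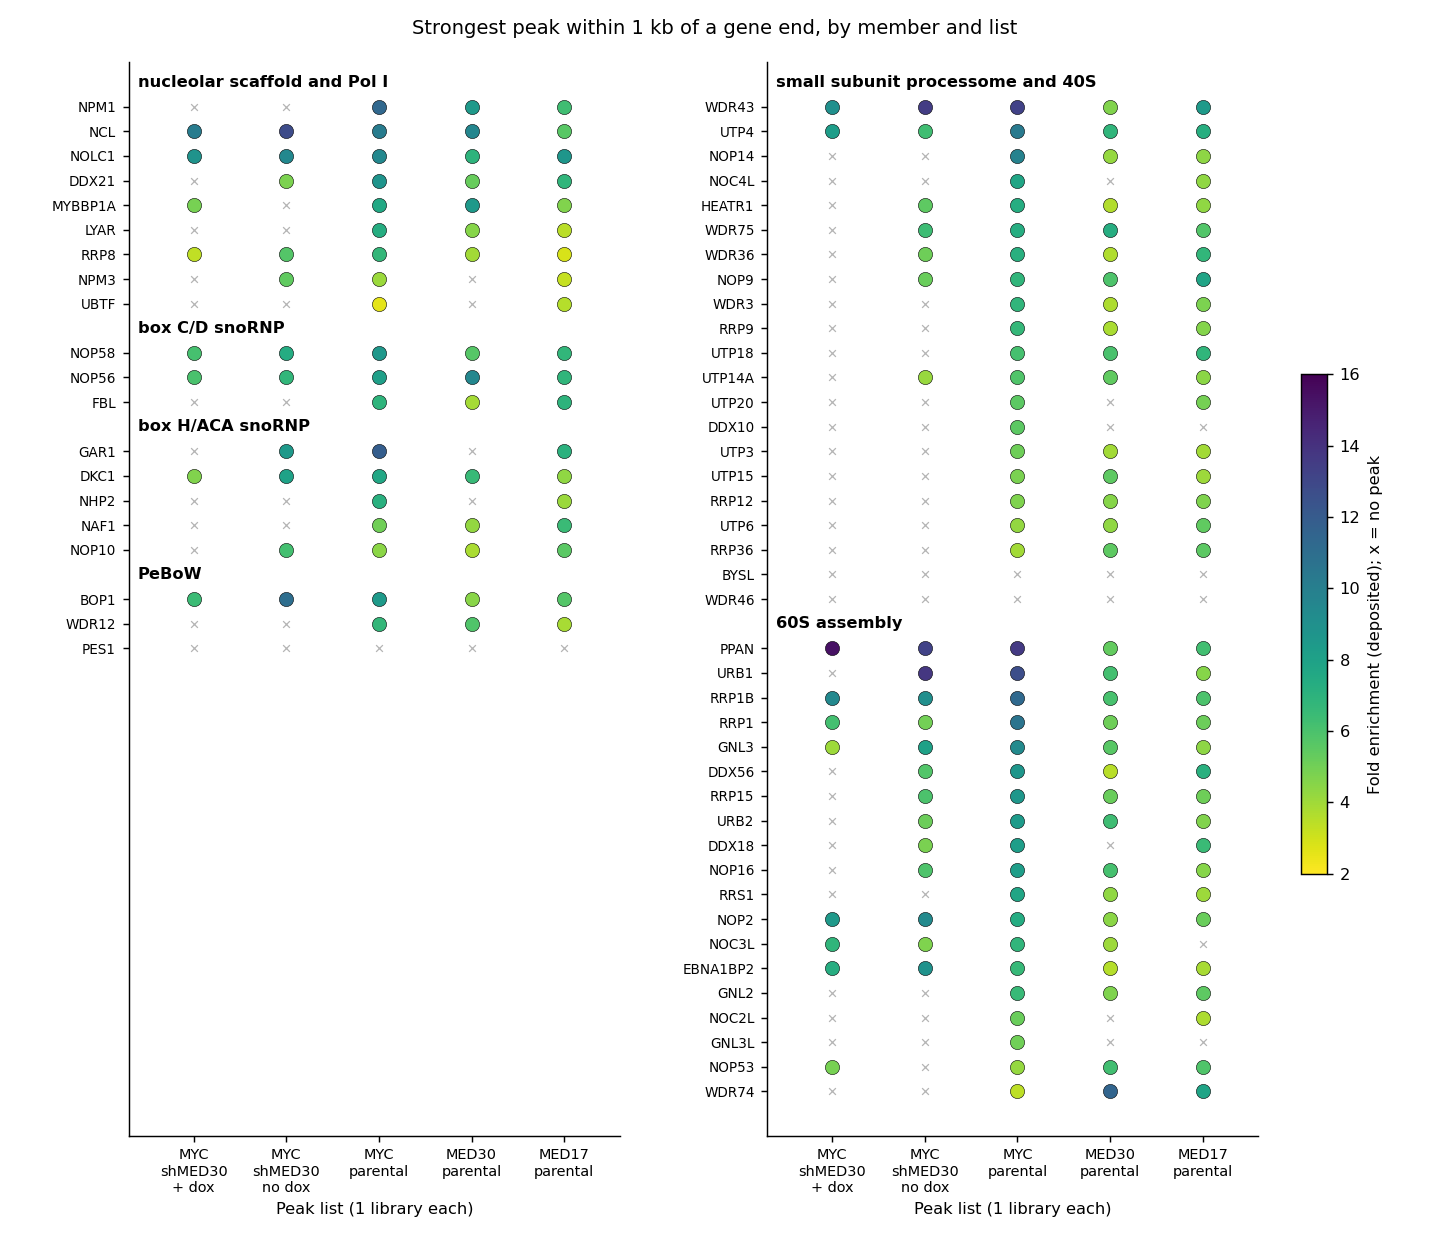
Deposited fold enrichment (colour scale, 2 to 16) of the strongest peak within 1 kb of a gene end for each of the 60 members (rows, by role) in the 5 lists (columns, 1 library each); a cross marks no peak. Parental MYC is present at 57 members, and the highest values in the shMED30 lists fall on PPAN, URB1, WDR43 and NCL.

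The members with no gene-end peak in any list were PES1, BYSL and WDR46. BYSL, a 40S factor, has its RefSeq start 12.7 kb inside the annotated gene. There it had MYC folds of 8.48 with doxycycline, 10.6 without it and 9.80 in parental cells, 6.28 for MED17 and no MED30 peak. WDR46, a small subunit processome protein, had no peak in any list; its nearest peak was a MED17 peak 9.20 kb away. WDR46 lies in the major histocompatibility complex on chromosome 6, and 5, 8, 31, 47 and 62 peaks of the MYC with doxycycline, MYC without doxycycline, parental MYC, MED30 and MED17 lists lay on alternative haplotype contigs of chromosome 6. Whether reads from WDR46 were placed on those contigs was not tested. Counting RefSeq starts as well as gene ends, MYC was present at 20 members with doxycycline and 34 without it, beside 5.22% and 9.32% of all genes. In parental cells MYC was then present at 59 members (41.5% of all genes), MED30 at 48 (43.8%) and MED17 at 56 (50.6%).

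In the shMED30 line, 31 members had a MYC peak without doxycycline. Of these, 16 (51.6%, interval 33.1 to 69.8%) had an overlapping peak with doxycycline, beside 33.5% of all 1713 genes with a peak without it. The other 15 had none, and MYBBP1A and NOP53 had a peak only with doxycycline, as did 1.74% of all genes. The 68 other assembly genes kept 17 of 25 (68%, interval 46.5 to 85.1%). The share kept followed the pileup without doxycycline. Members with a pileup of up to 9 fragments kept 3 of 15 peaks (20.0%), those with 10 to 19 kept 7 of 9 (77.8%, interval 40 to 97.2%) and those with 20 or more kept 6 of 7 (85.7%, interval 42.1 to 99.6%). All genes kept 15.8%, 52.6% and 90.6% in those classes. Within each class the members' interval includes the share of all genes. With only 15, 9 and 7 members in the classes these intervals are wide. Neither a difference in retention nor its absence can be read from them. The depth of the doxycycline library, 0.599 times that of its partner, cannot be told apart from the treatment.

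At the 16 kept members, the MYC pileup with doxycycline was above that without it at 3, UTP4, NOC3L and RRP1, and below it at 13. Once the pileup without doxycycline was scaled by 0.599 for depth, the doxycycline value was at or above it at 10 members and below it at 6. At NOP56, 1 of the 10, the strongest peaks with and without doxycycline do not overlap, and over the other 15 members the counts were 9 and 6. These members were selected for having a peak with doxycycline, which favours higher values there. PPAN had 26 fragments with doxycycline (exact Poisson interval 17.0 to 38.1) against 27 without it (17.8 to 39.3), or 16.2 after scaling. WDR43 had 18 (10.7 to 28.4) against 36 (25.2 to 49.8), or 21.6 after scaling, and NCL 18 (10.7 to 28.4) against 34 (23.5 to 47.5), or 20.4 after scaling. GNL3 had 4 (1.09 to 10.2) against 13 (6.92 to 22.2), or 7.79 after scaling, and BOP1 9 (4.12 to 17.1) against 24 (15.4 to 35.7), or 14.4 after scaling. In each of these 5 genes the interval with doxycycline includes the scaled value, apart from PPAN, where it lies above it; the counting error of the scaled value itself is not included.

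**Figure D5:**
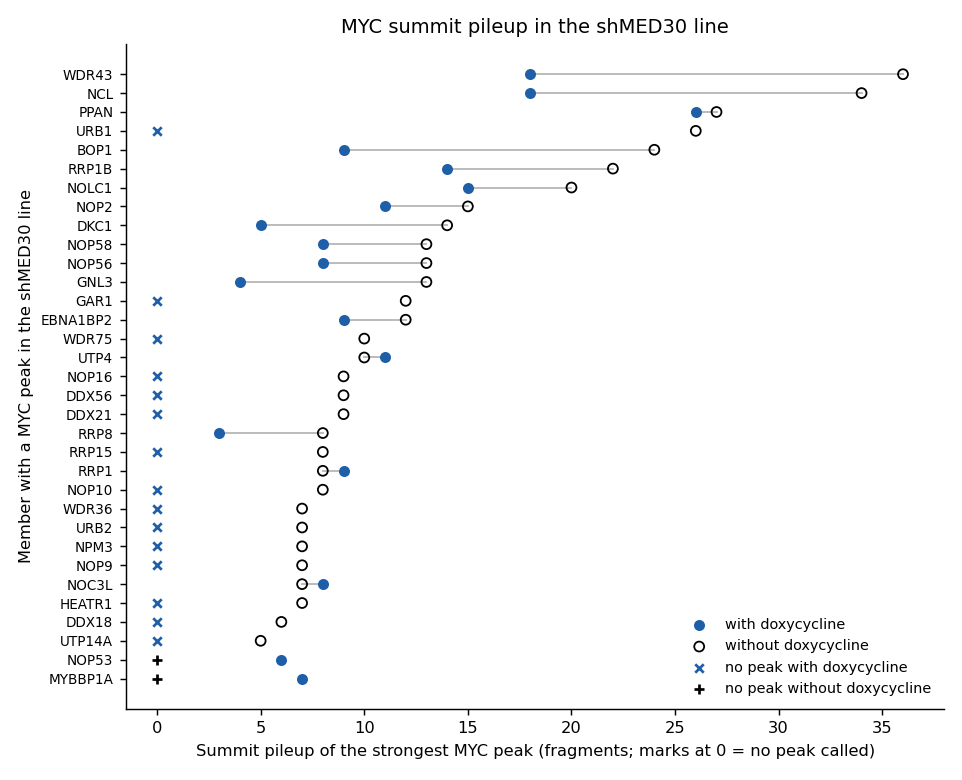
Summit pileup of the strongest MYC peak (x axis, fragments) in the shMED30 line with doxycycline (filled) and without it (open) for the 33 members with a peak in either list (rows); marks at 0 stand for no called peak and not for a measured 0. Pileups run up to 26 fragments with doxycycline and 36 without it, and URB1 is the one member above 20 fragments without doxycycline that has no peak with it.

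URB1 was the exception among the strong sites. It had a MYC pileup of 26 fragments without doxycycline (interval 17.0 to 38.1), which is 15.6 after scaling, and its nearest MYC peak with doxycycline was 149.9 kb from a gene end. Among all 1140 genes that had a MYC peak without doxycycline and no overlapping one with it, URB1 had the highest fold and the highest pileup. The lists hold called peaks only, so the signal below the calling threshold at URB1 was not analysed here. The remaining lost members had 5 to 12 fragments without doxycycline, led by GAR1 (12) and WDR75 (10). By Mediator state, 16 of 28 members with a parental MED30 peak kept their MYC peak (57.1%) and 0 of 3 without one did (GAR1, NPM3 and DDX18), against 35.3% and 22.7% of all genes; with 3 genes no difference can be read from this.

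All 31 members with a MYC peak without doxycycline had it overlapping a parental MYC peak, beside 93.0% of all genes with a peak without doxycycline. The other 26 parental MYC-bound members had none there (45.6%), beside 79.1% of all genes with a parental MYC peak. Members with a MYC peak in both had a median parental fold of 8.38 and pileup of 59 fragments. Members bound in parental cells only had 5.84 and 29.5 fragments. All genes show the same order, with medians of 6.55 and 40 fragments against 4.41 and 21. Line and depth differ together between these libraries and cannot be told apart. Ranked by fold, the members' MYC peaks without doxycycline and in parental cells had a Spearman's rho of 0.53 over 31 genes, and those with and without doxycycline 0.67 over 16, as a description.

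Many of these peaks also lay near a second gene. Either end of another protein-coding gene lay within 1 kb of the strongest peak at 8 of 18 members in the MYC list with doxycycline, 12 of 31 without it, 22 of 57 for parental MYC, 21 of 47 for MED30 and 23 of 54 for MED17. The same share was not counted over all bound genes, so these counts do not set members apart. Examples from the parental MYC list are GNL3 with PBRM1, BOP1 with HSF1, RRP8 with ILK and EBNA1BP2 with CFAP57, and the peak lists do not say which gene of a pair a peak belongs to.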

How the data were processed

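Peak lists in narrowPeak layout were available for 5 libraries, 1 per group. Trim Galore, Bowtie2, MACS2, deepTools and the hg38 build appear in the submitters' processing notes, without versions, and the sources used here do not give any input control. In the deposited lists, fold enrichment is a ratio of summit pileup to local background, significance per peak is −log10 p and −log10 q, and the score is a whole number derived from −log10 q. All are the authors' values, used to describe and rank peaks within a list. The lowest −log10 q was 1.01 with doxycycline and 1.00 without it in the shMED30 lists, and 1.30 to 1.31 in the others.

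Gene ends were read from RefSeq's GRCh38.p14 gene table, and starts, strands and sequences from RefSeq promoter windows of the same build, held by 51 members and missing for 9. A gene was bound if a peak came within 1 kb of an end; its strongest peak by fold gave its value. Summit pileup was recovered from fold, as (pileup + 1)/(background + 1), and a Poisson p, within 0.002 log10 units for 99.4 to 99.8% of peaks. Intervals are exact (Clopper-Pearson or Poisson, 95%). The recovery was tested on simulated data. Values in all lists are given for NCL, NPM1, FBL, UBTF and DKC1, the top 3 of each role group by parental MYC fold, members with an shMED30 MYC peak and members without a parental one. Details on LYAR, WDR74 and UTP18, and the genes with pileups in full, were chosen after their values were seen. Members, role groups and lists were chosen with earlier results of these data known. Alternatives covered the window, q, fold, overlap and start rules. Python 3.11.15, numpy 2.4.6, pandas 2.3.3 and scipy 1.17.1 were used.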

Additional observations from a re-analysis of the deposited data

How the results depend on the processing

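Across 62 alternatives for 10 counts, 55 stayed within 1.5 times the reported count and 7 moved further, all downward; the members' share was above that of all genes in 61. Keeping the upper 50% of each list by fold left MED17 at 29 members (48.3%, against 27.3% of all genes), MED30 at 26 (43.3%, against 24.1%) and all 3 proteins at 14 (23.3%, against 8.46%). With a reciprocal overlap of 50%, 12 MYC peaks without doxycycline overlapped a parental one (38.7%, against 28.6% of all genes with such a peak). Under the same rule 26 parental MYC peaks overlapped both subunits (45.6%, against 33.98% of all bound genes). With summits within 250 bp, 17 did (29.8%, against 28.8% of all bound genes). CACGTG in the 250 bases before the start was found in 8 members (15.7%, against 9.73%). The drops in peak counts follow from the stricter rules. The CACGTG drop differs, because that alternative leaves out the bases after the start, where the site began in 14 members. The share of all genes changed little, from 10.9% to 9.73%. The exception among the 62 was the overlap without doxycycline of summits within 250 bp, 80.6% of members against 82.1% of all genes. Counting RefSeq starts too, a pileup floor of 10 and CACGTG in bound members were alternatives chosen after seeing the data. With 1 library per group, no replicate could be left out. No paired analysis was possible because each group has 1 library and no test was run. The shMED30 libraries are the least deep, and depth, line, treatment and the looser q threshold of their lists cannot be told apart.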
